A study of Caenorhabditis elegans with 2 samples.

Results

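The dosage compensation complex of Caenorhabditis elegans is encoded by 10 genes considered here, chosen by name from a total of 19983 protein-coding genes in the gene table: mix-1, dpy-27, dpy-26, dpy-28, capg-1, sdc-1, sdc-2, sdc-3, dpy-30 and dpy-21. Chromatin immunoprecipitation and sequencing (ChIP-seq) mapped CEC-7, a chromodomain protein, in young adult hermaphrodites that contain a germline, carry fem-2(b245) and were grown at 20 degrees Celsius. The fem-2 gene acts in sex determination, and the ChIP library and the input DNA library share this genotype, stage and temperature. The antibody was an affinity-purified rabbit polyclonal raised against CEC-7 (Y37D8A.11). Of the 2 libraries, both labelled replicate 2, a peak list was analysed for the ChIP library alone, so the values below carry no replicate error and no test was made. Chromatin came from whole worms, and tissues cannot be told apart.

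In hermaphrodites, which have a pair of X chromosomes, the dosage compensation complex binds both of them and lowers their transcription to the level of the single X of males. Its core is a condensin, a ring-shaped complex that folds chromosomes. The SDC proteins bring this core to X, and further subunits modify chromatin there. Several condensin subunits of the complex also serve in the condensins that compact all chromosomes for division. The genes that encode the complex lie on the 5 autosomes as well as on X.

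The list held 2767 peaks, regions called as enriched, with a median width of 1987 bp and a median score of 127.0. The score is the authors' own value for each peak. Its scale is not stated in the file, sequencing depth is unknown, and the score is used here to rank peaks within this list. The peaks are on WormBase WS220 and the gene positions on RefSeq's WBcel235, builds whose positions differ by about 100 bp at most, so each distance below holds to within about 100 bp and no gene coordinates are given. A gene was counted as having a peak where a peak overlapped the gene body or the 500 bp on either side by at least 1 base. The gene table gives no strand, exons, introns or UTRs. Left and right therefore refer to the direction of increasing coordinates, and whether a peak lay at a promoter, an exon or an intron was not analysed here.

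CEC-7 peaks were listed at 5 of the 10 genes, mix-1, dpy-26, dpy-28, capg-1 and dpy-21, and in each of them a peak lay in the gene body. The other 5, dpy-27, sdc-1, sdc-2, sdc-3 and dpy-30, had none. Among the other protein-coding genes of the nuclear chromosomes, 17.5% (3496 of 19961) had a peak by the same rule, and 15.1% had one in the gene body. By role, the condensin genes had a peak in 4 of 5 cases and the sdc genes in 0 of 3, and of the remaining pair dpy-21 had one and dpy-30 did not. With sdc-1 and sdc-2 on X and sdc-3 on V, the shares of genes with a peak on these chromosomes sum to 0.0838 for the sdc genes, so that 0 of 3 is near this background.

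**Figure D1:**
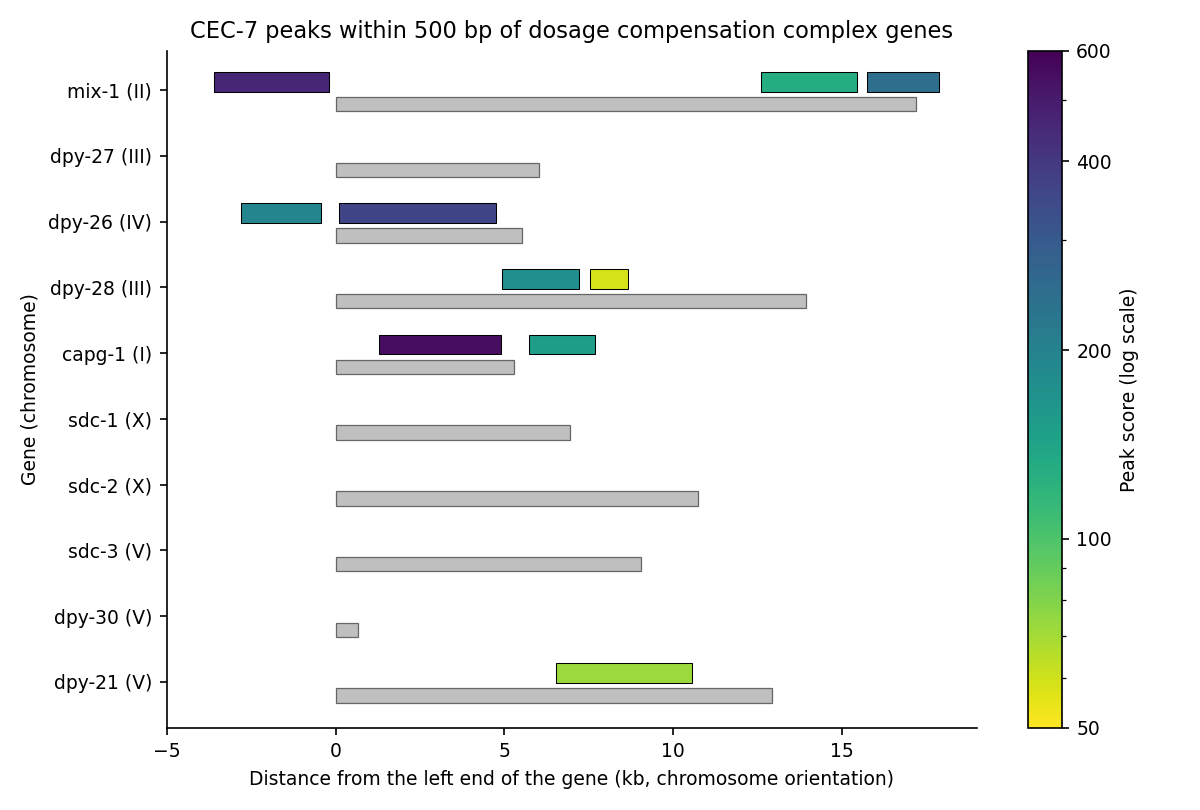
Each row shows 1 gene as a grey bar, from its left end at 0 on the horizontal axis (kb, in chromosome orientation), with the CEC-7 peaks within 500 bp of it as boxes above, coloured by score on a log scale. All 10 peaks belong to 5 genes, 6 of them lie wholly inside a gene of the complex, and the 3 sdc genes have none. In the whole list, 55.3% of 2767 peaks lie wholly inside a protein-coding gene.

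The share of genes with a peak differed widely between chromosomes, so each gene is best read against its own. Chromosome III had the highest share, 37.2% of its other protein-coding genes, followed by I with 29.6%, II with 21.3%, IV with 16.1%, V with 8.01% and X with 0.183%. Summed over the chromosomes on which the 10 genes lie, these shares come to 1.66 genes, against 5 with a peak. Length matters to such a count, because a longer gene offers more sequence to overlap. The 10 genes had a median length of 7994.5 bp and 9 of them were 5000 bp or longer, whereas all nuclear protein-coding genes had a median of 2006 bp. Among the other genes of 5000 bp or more, the share with a peak was 28.5% in all. In the order of chromosomes just given it was 46.4%, 39.3%, 35.8%, 28%, 20.6% and 0.366%. Over the 9 long genes these shares sum to 2.38, and 5 of the 9 had a peak. For the 5 condensin genes the sums were 1.41 with all genes and 1.96 with long genes, against 4 with a peak. The pool of 5000 bp or more matches length only in part. On their chromosomes, 1.19% of other genes were longer than mix-1, 1.6% than dpy-21 and 3.22% than dpy-28. For dpy-26 and capg-1 it was 13.7% and 19.5%. With so few genes on chromosomes so unlike one another, these sums are a description and were not tested.

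**Figure D2:**
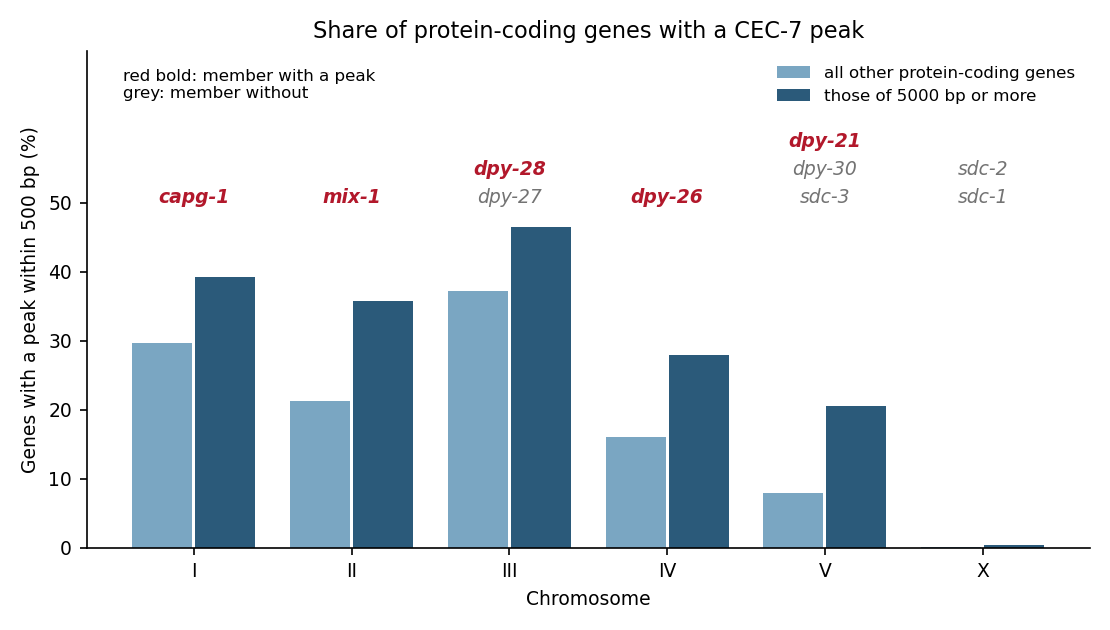
Bars give the percentage of other protein-coding genes with a CEC-7 peak within 500 bp on each chromosome, for all genes and for those of 5000 bp or more, and the names above are the dosage compensation complex genes of that chromosome, in red bold where they had a peak. The share runs from 37.2% on III to 0.183% on X for all genes, and long genes have a higher share on each of the 6 chromosomes.

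The highest scores were at 3 condensin genes. The gene capg-1 (CELE_F29D11.2, chromosome I, 5294 bp) encodes CAPG-1, the HEAT-repeat subunit related to CAP-G of other condensins. A peak of 3601 bp at I 7635785 to 7639385 lay wholly inside it, began 1293 bp from its left end and stopped 400 bp before its right end. It scored 551.08, the highest value at any of the 10 genes, and ranked 42 of 695 peaks on chromosome I and 162 of 2767 in the whole list. It covered 68.0% of the gene, where the other genes of chromosome I with a peak had a median of 52.5%. A second peak, I 7640225 to 7642161 with a score of 152.16, stood 439 bp beyond the right end and lay on the neighbouring gene F26A3.1. By its highest score, capg-1 ranked 81 when placed among the 850 other genes of its chromosome that had a peak.

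The gene dpy-26 (CELE_C25G4.5, chromosome IV, 5535 bp) encodes the kleisin, the subunit that closes the condensin ring. Its body was almost filled by a single peak of 4643 bp, IV 12445906 to 12450548, which left 105 bp free on the left and 787 bp on the right and covered 83.9% of the gene. The score of 358.81 was the 41st of 434 on chromosome IV, and 92.2% of the peaks on that chromosome were narrower. A second peak, IV 12442989 to 12445366 with a score of 192.97, ended 434 bp to the left of dpy-26 and touched 3 other genes, C25G4.17, C25G4.2 and C25G4.3. C25G4.3 overlaps dpy-26 in the gene table, but the peak inside dpy-26 did not touch it. A further peak, scored 63.14, lay 1.13 kb to the right, outside the window. The 3 peaks formed a group of 11.1 kb when peaks less than 5 kb apart were joined.

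The gene mix-1 (CELE_M106.1, chromosome II, 17179 bp) encodes the SMC2-type ATPase that all condensins of the worm share. It was the longest of the 10 and had 3 peaks in its window, more than any other of them. On chromosome II, 5.78% of the other genes, taken at all lengths, had 2 or more. Over all nuclear chromosomes, 12.2% of other genes of 5000 bp or more did, and 1.19% of the other genes of II were longer than mix-1. The strongest, II 10820658 to 10824059 with a score of 458.82, did not lie in mix-1. It ended 186 bp to the left of it, on ech-4 and R06F6.12. Within the gene, both peaks were in the right part, at II 10836831 to 10839676 (score 129.72) and II 10839973 to 10842102 (score 244.38), with their middles at 81.5% and 97.7% of its length. The latter crossed the right end of mix-1 by 678 bp and touched M106.8, a coding gene that overlaps mix-1 there, and a snoRNA gene. The share of this peak that belongs to M106.8 and that of the end of mix-1 cannot be told apart. The first 12.6 kb of the gene held no peak, and 25.0% of its length was covered.

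The gene dpy-28 (CELE_Y39A1B.3, chromosome III, 13946 bp) encodes the HEAT-repeat subunit related to CAP-D2. Its 2 peaks stood side by side in the middle of the gene, with 4.92 kb free on the left and 5.27 kb on the right. The left one, III 10768056 to 10770331, scored 175.58 and ranked 331 of 763 on its chromosome. The right one, III 10770655 to 10771803, scored 58.88 and ranked 699, so that 8.39% of the peaks on chromosome III were lower. Neither touched another coding gene, and the next peaks lay 4.7 kb to the left and 35.4 kb to the right of the gene. Unlike at the 3 genes above, its highest score lay below 214.6, the median of the highest scores at the 981 other genes of chromosome III with a peak.

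The remaining condensin gene, dpy-27 (CELE_R13G10.1, chromosome III, 6036 bp), had no peak. It encodes the SMC4-type ATPase that belongs to the dosage compensation complex alone. The nearest peaks were 20.5 kb to the left (score 116.63) and 24.8 kb to the right (score 104.97), both below 146.5, the median score of chromosome III. Of the 1659 other genes of that chromosome without a peak, 73.7% were nearer to one, and their median distance was 8.98 kb. Chromosome III had the highest share of genes with a peak, yet this was 37.2% of other genes and 46.4% of those of 5000 bp or more. Most genes there, like dpy-27, had none.

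The gene that encodes the counterpart of DPY-27 in the other condensins, smc-4, lies on the same chromosome and is among 4 further condensin genes considered for comparison. Its peak scored 911.79, ranked 19 of 763 on chromosome III and 35 in the whole list, covered 89.1% of the gene and extended over erh-2 and apc-11. Of the other 3, kle-2, the kleisin of condensin II, had a peak scored 232.05, capg-2 had one scored 179.55, and hcp-6 had none, with the nearest 3043 bp away. Thus 3 of 4 of these genes had a peak, where their chromosome shares sum to 1.12. Those shares take in genes of all lengths. The 4 genes had a median length of 4750.5 bp, against 2006 bp for all nuclear protein-coding genes. The peak at kle-2 also touched C29E4.12.

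**Figure D3:**
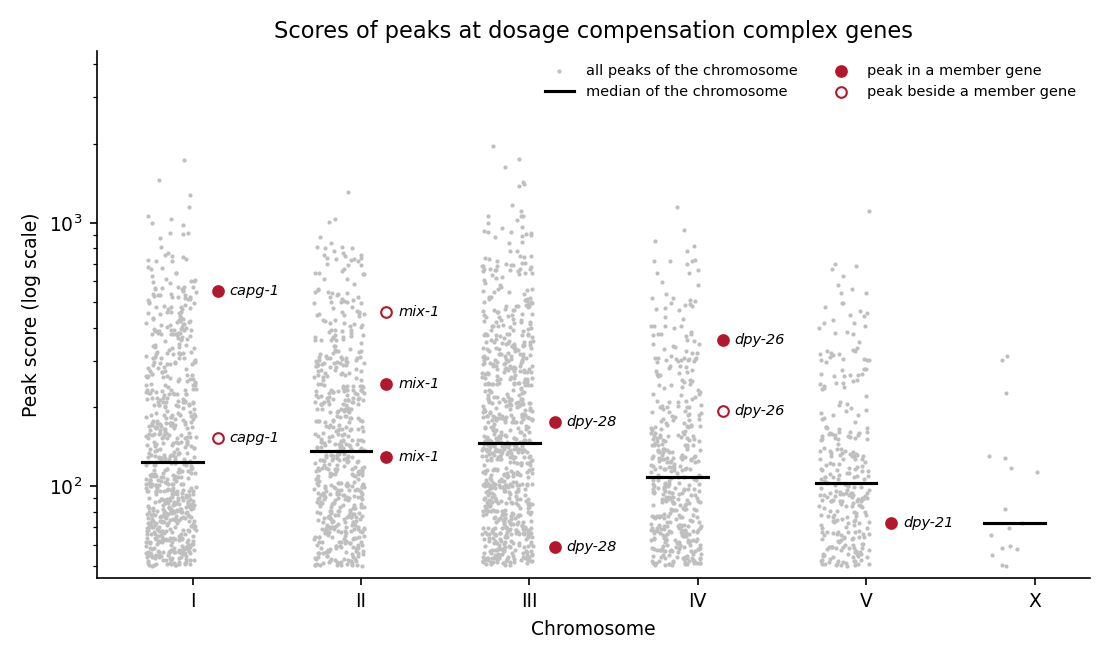
The score of each peak (vertical axis, log scale) is plotted by chromosome in grey with the median as a black line, and the 10 peaks at dosage compensation complex genes are drawn in red, filled where they overlap the gene and open where they lie beside it. The highest peaks at capg-1, dpy-26 and, beside the gene, mix-1 lie above 94.0, 90.6 and 90.3% of the peaks of their chromosomes, while the dpy-21 peak at 72.70 and the weaker dpy-28 peak at 58.88 lie low.

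Outside the condensin, dpy-21 (CELE_Y59A8B.1, chromosome V, 12912 bp) was the one gene with a peak. DPY-21 is a demethylase of lysine 20 on histone H4, which enriches monomethylated H4K20 on X. The peak, V 17942798 to 17946837, lay wholly inside the gene, with its middle at 66.1% of its length. It was wide, at 4040 bp wider than 91.1% of the peaks on chromosome V, but its score of 72.70 was low, above 26.1% of them. By this score, dpy-21 ranked 320 when placed among the 400 others of its chromosome by highest score. The peak stood by itself, with the next ones 7.3 kb to the left and 6.61 kb to the right. It was also the one call among the 5 that did not hold in the 50% of peaks with the highest score.

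The gene dpy-30 (CELE_ZK863.6, chromosome V) is the shortest of the 10, at 659 bp, and encodes a small subunit that also serves in COMPASS, the complex that methylates lysine 4 on histone H3. It had no peak by the rule used, but one stood 719 bp to its right (score 58.45). Of the 4592 other genes of chromosome V without a peak, 0.566% were nearer to one. This is the gene just outside the threshold of 500 bp. The peaks just inside it were the second peaks of dpy-26, at 434 bp, and capg-1, at 439 bp. With a window of 1000 bp dpy-30 was counted too, which made 6 of 10.

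Among 5 genes for partners of DPY-30 in COMPASS, 3 had a peak, where their chromosome shares sum to 1.33. This sum is not matched for length either, and the 5 genes had a median of 6128 bp. At set-2, which encodes the methyltransferase, the peak scored 935.15, ranked 30 in the whole list and covered 95.0% of the gene. It also touched mmab-1. At ash-2 there were 2, scored 220.92 and 100.12, and the higher of them also touched Y17G7B.3. At wdr-5.1 a peak scored 66.77 lay 190 bp away on dph-1 and none in the gene itself. For rbbp-5 and cfp-1 the nearest peaks were 778 and 675 bp away, just outside the window.

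The SDC genes had no peak near them. SDC-2, made in hermaphrodites, starts the assembly of the complex on X, with SDC-3 and SDC-1, both zinc finger proteins, as partners. The gene sdc-3 (CELE_C25D7.3, chromosome V, 9060 bp) lay between a peak 32.7 kb to its left (score 55.43) and one 31.6 kb to its right (score 67.29). Both scores were under the lower quartile of chromosome V, 70.7. The median distance of the other genes of this chromosome without a peak was 44.8 kb, and 40.0% of them were nearer to one than sdc-3.

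The genes sdc-1 (CELE_F52E10.1, 6929 bp) and sdc-2 (CELE_C35C5.1, 10744 bp) are on X, where 17 peaks were listed and 5 of 2728 other protein-coding genes had one. The gene sdc-2 lay in the long stretch without peaks, 4161.2 kb from the nearest on its left and 4273.3 kb from the nearest on its right. Of the 2723 other genes of X without a peak, 99.4% were nearer to one. The gene sdc-1 lay beyond the last peak of X, 464.1 kb to the right of it, and had none on its other side. The absence of peaks at these genes is thus shared by nearly all of X.

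**Figure D4:**
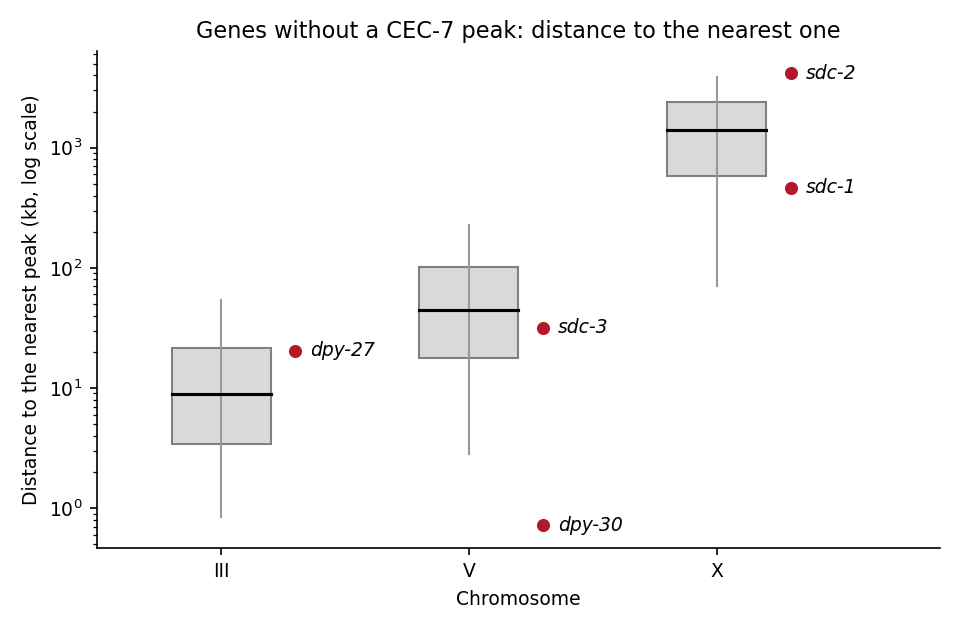
Red points give the distance to the nearest CEC-7 peak (kb, log scale) of each dosage compensation complex gene without a peak, beside all other protein-coding genes without a peak on the same chromosome (box: quartiles, black line: median, grey line: 5th to 95th percentile). The gene dpy-30 lies 0.719 kb from a peak, dpy-27 20.5 kb and sdc-3 31.6 kb, and the sdc genes on X lie 464.1 and 4161.2 kb away.

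Of 7 genes that regulate sex and dosage compensation or respond to the SDC proteins, 0 had a peak, where their chromosome shares sum to 0.513. On X lie 4 of them: xol-1, the master switch of sex determination, and sex-1, fox-1 and ceh-39, X-linked elements of the X chromosome count. On the autosomes, sea-1 and sea-2, which report the number of autosomes, lay 128656 and 16624 bp from the nearest peak. The gene her-1, an autosomal gene that SDC proteins repress, lay 45733 bp away. Among 5 genes for histone H4K20 and X chromatin factors, none of them on X, 3 had a peak, where their chromosome shares sum to 1.07. These were set-1, the H4K20 monomethyltransferase (score 129.37), cec-4, which encodes a chromodomain protein of the nuclear envelope (180.00), and sir-2.1, a deacetylase (102.64). The peak at set-1 also touched T26A5.6 and an antisense RNA gene. The peak at cec-4 lay for 31.4% of its length in that gene and also touched cec-5 and F32E10.5. The genes set-4, an H4K20 methyltransferase that makes the higher methylation states, and htz-1, which encodes the histone variant H2A.Z, had none, with peaks 8952 and 633 bp away. All 4 lists together held a peak at 9 of 21 genes, and at 9 of the 17 that are not on X, where the chromosome shares of the 21 sum to 4.03 genes. None of these sums is matched for length. The 21 genes had a median length of 3786 bp, the 7 regulators 4093 bp and the 5 chromatin factors 1504 bp. For all nuclear protein-coding genes it was 2006 bp.

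The 5 dosage compensation complex genes with a peak differed in how it was placed. The covered length was similar, 3425 bp in dpy-28, 3601 in capg-1, 4040 in dpy-21, 4298 in mix-1 and 4643 in dpy-26, while the genes ran from 5294 to 17179 bp. The covered share was therefore higher in the shorter genes, 83.9% in dpy-26 and 68.0% in capg-1, than in dpy-21 with 31.3%, mix-1 with 25.0% and dpy-28 with 24.6%. Other genes with a peak had median covered shares of 51.1% on IV and 52.5% on I, below dpy-26 and capg-1. On V, II and III these medians were 42.8%, 64.3% and 65.7%, above dpy-21, mix-1 and dpy-28. The medians take in genes of all lengths, and the same covered length makes a smaller share of a longer gene. At least 50% of the gene was covered in 2 of the 10, against 9.5% of other genes, again of all lengths. More than 1 peak stood at 4 of the 10, against 4.14% of other genes with 2 or more and 12.2% of those of 5000 bp or more. This count depends on the rule. It was 3 with all genes moved 100 bp either way, which takes the second peak from capg-1 or from dpy-26, and 2, mix-1 and dpy-28, with the gene body alone. It was 1, mix-1, with peaks less than 1000 bp apart merged. For other genes, 2 or more peaks were counted by the 500 bp rule alone, so these lower counts have no matching share. By chromosome the share of all other genes with 2 or more was 9.02% on III, where dpy-28 lies, 7.37% on I with capg-1, 5.78% on II with mix-1, 3.57% on IV with dpy-26, 1.18% on V and 0.0733% on X. These shares by chromosome take in genes of all lengths and are not matched to the long genes of the complex. No peak covered the left end of any of the 10 genes, 5 of which had no peak at all, and 1 covered a right end, that of mix-1. Peaks over the ends of other genes were not counted, so whether these numbers are low is not known. At dpy-26 the free 105 bp on the left are within reach of the difference between builds. Of the 10 peaks, 6 lay wholly inside a gene of the complex, 1 partly and 3 beside it. Of all 2767 peaks, 55.3% (1529) lay wholly inside some protein-coding gene, so 6 of 10 is near the share in the whole list.

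The number of peaks in and around each gene differed as well. This number includes the peaks of the gene itself, and its window is longer for a longer gene. It is therefore no separate trait of the neighbourhood. Within 50 kb of mix-1 there were 17 peaks, where the median for genes of chromosome II was 3 and 99.7% had fewer. Around capg-1 there were 11 against a median of 5, and 91.3% of the genes of chromosome I had fewer. The gene dpy-26 had 5 against 2, dpy-21 and dpy-30 4 each against 1, and dpy-28 7 against 6. Without a peak of its own, sdc-3 had 2 against 1, and sdc-1 and sdc-2 had 0 against 0. For dpy-27 the number was 4, below the 6 of chromosome III. The peak in capg-1 opened a group of 5 peaks over 23.4 kb, whereas the 2 peaks in dpy-28 formed a group of their own.

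**Figure D5:**
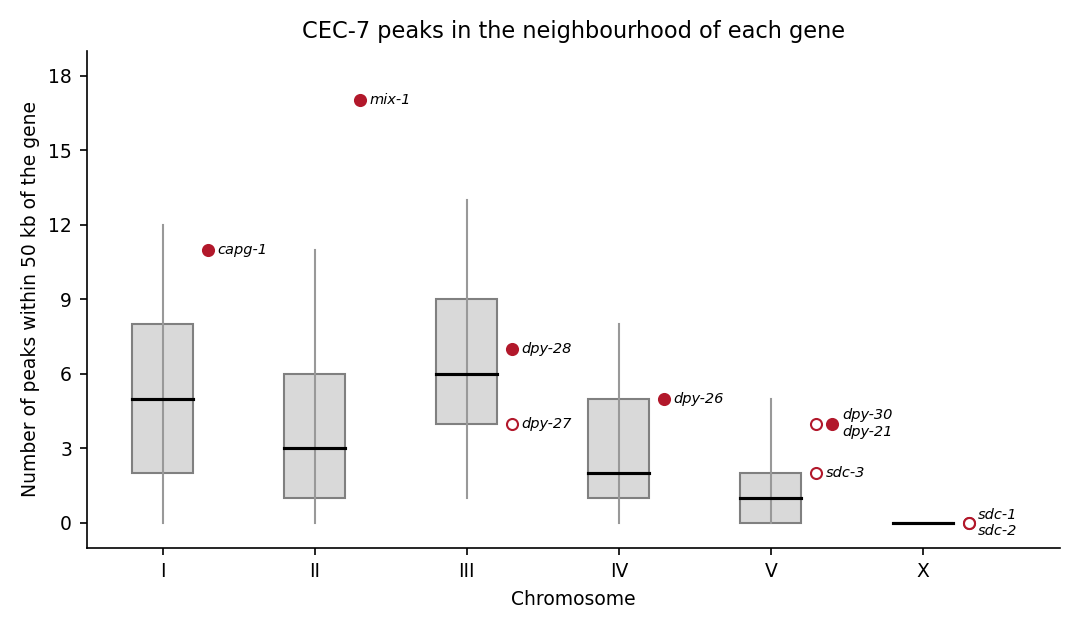
Points give the number of CEC-7 peaks within 50 kb of each dosage compensation complex gene, the gene's own peaks included, filled where the gene itself had a peak, beside all other protein-coding genes of the chromosome (box: quartiles, black line: median, grey line: 5th to 95th percentile). The gene mix-1 has 17 such peaks and capg-1 11, above their medians of 3 and 5, and the sdc genes on X have 0.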

How the data were processed

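ChIP DNA and input DNA of whole adult worms were sequenced on Illumina instruments, per the labels' protocols. The aligner BWA and the build ce10 are named in the submitters' processing notes. Peaks were called with MACS on WormBase WS220, per the file headers. The deposited score per peak is the authors' value, and its scale, the MACS version and settings, the control, any pooling and the depth were not given in the sources used here. Peak positions were compared with the protein-coding genes of RefSeq's WBcel235 table without conversion, and all genes were also moved 100 bp either way. The genes and related lists were chosen with earlier results of these data known. All 10 genes and all 21 related genes are reported, and neighbours are named where they share a peak. Gene starts could not be analysed, since the table holds no strand, and no sequence was at hand. Overlaps were counted with pandas 2.3.3 and NumPy 2.4.6 under Python 3.11.15, and plots came from matplotlib 3.10.9.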

Additional observations from a re-analysis of the deposited data

How the results depend on the processing

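The count of 5 genes with a peak, and of 5 on the autosomes, was 5 with the gene body alone, with all genes moved 100 bp to the left or right, with merged peaks and with the middle of the peak in the window. It was 6 at 1000 and 2000 bp, with dpy-30 gained, 4 in the 50% of peaks with the highest score, with dpy-21 lost, and 2, capg-1 and dpy-26, where peaks had to cover at least 50% of the gene, for both counts. That setting is harder for long genes by its construction. The related genes ran from 7 to 12 of 21. Shares of other genes with a peak on I, II, III, IV and V were 25.4, 18.6, 32.3, 13.7 and 6.73% for the gene body alone. They were 33.2, 23.7, 41.1, 18.5 and 9.29% at 1000 bp and 38.7, 27.2, 46.6, 22.3 and 11.2% at 2000 bp. They were 18.7, 14, 27.3, 8.72 and 4.05% for higher-scoring peaks, 20.7, 15, 25.8, 11.5 and 5.47% by the middle of the peak, and 15.2, 12.5, 22.2, 8.2 and 3.49% with 50% cover (0.0367% on X). For genes of 5000 bp or more, a setting chosen after seeing the data, they were 39.3, 35.8, 46.4, 28 and 20.6%. No alternative was run for gene starts, for want of strands. No paired analysis was possible because a peak list of 1 library alone was analysed. Sites weaker than the caller's threshold are not in the list, so a gene without a peak is not shown to lack CEC-7.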
